A study of Mus musculus with 27 samples.

Results

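Replication-dependent histone genes encode the bulk of the histone protein that packages newly copied DNA. They lie in a few dense clusters, and in the GENCODE vM1 annotation of mouse assembly NCBIM37 (mm9) their symbols begin with *Hist1h*, *Hist2h*, *Hist3h* or *Hist4h*. Of 37310 annotated genes, 70 carried such a symbol, of which 67 were annotated as protein-coding and 3 as pseudogenes. Every region of H3K4 methylation that overlapped the body of one of these genes, or lay within 5 kb of one of its transcription start sites (TSS), was assigned to it.

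The study asked where H3K4 methylation is lost when *Kmt2d*, which encodes a histone H3 lysine 4 methyltransferase, is deleted from heart muscle. Chromatin immunoprecipitation and sequencing (ChIP-Seq) was applied to hearts of E11.5 mouse embryos of strain C57BL/6, with antibodies to H3K4me1, H3K4me2 and H3K4me3. Control hearts were *Tnnt2::Cre*; *Kmt2d* fl/+; mTmG/+ and mutant hearts were *Tnnt2::Cre*; *Kmt2d* fl/fl; mTmG/+. Both genotypes thus carried the Cre recombinase, the mTmG reporter and at least 1 floxed copy of *Kmt2d*, so the controls were not wild type. For each genotype, 3 pools of 30 hearts were each divided into an input and 3 immunoprecipitations. The series comprised 27 libraries in 9 groups of 3, including 3 KMT2D ChIP-Exo libraries from cardiomyocytes that were not used here. The *Tnnt2* promoter drives Cre in heart muscle cells, so the other cells of these whole hearts kept *Kmt2d*, and a pool reports the mixture.

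The values analysed were 3 region lists made by the authors. The merged list held 358833 regions with H3K4me1, H3K4me2 or H3K4me3, of which 2730 (0.761%) were also in the list of decreased H3K4me1 and 6699 (1.87%) in the list of decreased H3K4me2, meaning lower in mutant than in control hearts. The lists carry no read counts, fold changes or values per replicate. The depth behind each region is therefore unknown, replicates could not be compared, and no test over samples was possible. Shares are given with 95% Wilson intervals, which cover counting error only and treat regions as independent, although neighbouring histone genes share regions. As a check of the tissue, all 8 heart muscle markers examined (*Tnnt2*, *Myh6*, *Myh7*, *Actc1*, *Actn2*, *Ttn*, *Ryr2* and *Nppa*) had a TSS in a region. So did all 3 endothelial markers, all 3 epicardial markers and 2 of 3 blood markers. Of 6 genes not expected in heart (*Alb*, *Afp*, *Ins2*, *Cryaa*, *Krt5* and *Cdx2*), 2 did, *Ins2* (160 bp) and *Cdx2* (3120 bp). A region at the TSS was common, with 70.3% of coding genes outside the histone clusters having one, so this check separates tissues only weakly.

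Histones H2A, H2B, H3 and H4 form the core around which DNA is wrapped, and H1 binds the linker between cores. The clustered genes are transcribed mainly in S phase, when DNA is copied, under the coactivator NPAT. Their short transcripts usually lack introns and are not polyadenylated. They end instead in a conserved stem-loop that is bound by the stem-loop binding protein SLBP. By family, the 70 genes comprised 6 of H1, 20 of H2A, 19 of H2B, 12 of H3 and 13 of H4. Of these genes, 63 had a single exon, 53 were shorter than 1 kb, and the median length was 530.5 bp.

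The genes lay on 4 chromosomes. The *Hist1* set on chromosome 13 comprised 56 genes, with 24 in chr13:21807632-22135545, 31 in chr13:23622919-24026720 and *Hist1h2al* alone at chr13:51298057-51298434. The 10 *Hist2* genes lay in chr3:96023839-96082924, the 3 *Hist3* genes in chr11:58762413-58770176, and *Hist4h4* at chr6:136752589-136752900. Clusters were delimited by gaps of more than 500 kb between members.

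The stem-loop is the sequence feature these genes share, and 7 examples are shown because they carry the forms that differ between families. Each is given on the coding strand in the NCBIM37 assembly, with its 16-base stem-loop in capitals, 5 flanking bases on each side, and the coordinates of the stem-loop.
Hist1h1c, chr13:23831381-23831396: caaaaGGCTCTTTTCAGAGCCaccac
Hist1h2ae, chr13:23662537-23662552: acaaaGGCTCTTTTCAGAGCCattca
Hist1h2bg, chr13:23663712-23663727: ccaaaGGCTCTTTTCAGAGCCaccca
Hist1h1t, chr13:23788394-23788409: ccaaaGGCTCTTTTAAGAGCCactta
Hist4h4, chr6:136752519-136752534: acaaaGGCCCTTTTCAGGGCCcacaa
Hist1h4j, chr13:21827306-21827321: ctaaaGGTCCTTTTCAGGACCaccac
Hist1h4i, chr13:22132835-22132850: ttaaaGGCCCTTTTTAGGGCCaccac
In the 150 bases after the stop codon, a stem-loop of 6 base pairs and 4 loop bases was found in 61 of 67 coding members (91.0%) and in 13 of 22313 other coding genes (0.0583%), *H2afx* among them. The form in *Hist1h1c*, *Hist1h2ae* and *Hist1h2bg* occurred in 39 members of H1, H2A, H2B and H3. The form in *Hist1h1t* occurred in 9 members of the same families. The forms in *Hist4h4*, *Hist1h4j* and *Hist1h4i* were found in 8, 2 and 2 members, all of H4. No stem-loop of this kind was found within the window in *Hist1h2an*, *Hist1h2al*, *Hist1h3g*, *Hist1h4a*, *Hist2h2be* or *Hist2h2bb*.

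Many H2A and H2B genes lie head to head and share 1 short promoter. Of 13 such pairs, the inter-TSS sequences of 5 are given because their methylation calls differ. Each is on the plus strand of NCBIM37 and runs between both start sites. Capitals mark 4 motifs on either strand: the TATA box core TATAAA, the CCAAT box, the octamer ATTTGCAT and the H1 box AAACACA.
Hist1h2ae and Hist1h2bg, chr13:23663090-23663264: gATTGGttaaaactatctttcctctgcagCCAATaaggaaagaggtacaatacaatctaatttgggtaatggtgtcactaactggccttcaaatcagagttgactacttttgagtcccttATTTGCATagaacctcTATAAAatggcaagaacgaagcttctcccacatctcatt
Hist2h2ac and Hist2h2be, chr3:96024804-96025043: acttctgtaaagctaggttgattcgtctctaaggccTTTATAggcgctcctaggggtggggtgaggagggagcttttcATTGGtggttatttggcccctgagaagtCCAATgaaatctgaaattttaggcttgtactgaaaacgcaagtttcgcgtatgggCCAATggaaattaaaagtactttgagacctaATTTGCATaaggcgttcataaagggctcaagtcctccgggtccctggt
Hist3h2bb-ps and Hist3h2a, chr11:58768015-58768186: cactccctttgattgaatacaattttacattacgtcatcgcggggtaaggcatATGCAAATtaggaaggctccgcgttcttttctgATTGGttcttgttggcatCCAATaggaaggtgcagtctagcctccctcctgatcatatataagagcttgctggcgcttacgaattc
Hist1h2bq and Hist1h2ao, chr13:21902069-21902235: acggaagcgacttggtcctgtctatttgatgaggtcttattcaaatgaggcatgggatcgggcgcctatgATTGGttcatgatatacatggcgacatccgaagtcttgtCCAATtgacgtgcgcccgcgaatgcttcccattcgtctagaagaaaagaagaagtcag
Hist1h2ba and Hist1h2aa, chr13:24026031-24026330: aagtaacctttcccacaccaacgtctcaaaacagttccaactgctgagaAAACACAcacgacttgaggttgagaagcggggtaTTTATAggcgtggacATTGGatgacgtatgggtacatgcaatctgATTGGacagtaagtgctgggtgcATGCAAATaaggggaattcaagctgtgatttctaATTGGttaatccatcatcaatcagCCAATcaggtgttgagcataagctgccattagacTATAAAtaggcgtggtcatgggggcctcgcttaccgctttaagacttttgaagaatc
The first pair lay in a region of 8860 bp and the next in a region of 9560 bp, both in the list of decreased H3K4me2. The *Hist3* pair lay in a region of 5180 bp that was in neither decreased list. Neither TSS of the last 2 pairs lay in any region. The *Hist1h2ba* and *Hist1h2aa* sequence shows the 300 bases nearest *Hist1h2aa*.

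Most clustered histone genes started inside a methylated region, and most of these regions were called lower in H3K4me2 in the mutant. A TSS lay in a region of the merged list for 61 of 70 genes (87.1%, 95% Wilson interval 77.3% to 93.1%), compared with 15693 of 22313 other coding genes (70.3%). The region was in the list of decreased H3K4me2 for 53 of the 70 (75.7%, 64.5% to 84.2%), compared with 4551 of 22313 other coding genes (20.4%). Among genes with a TSS in a region, those shares were 86.9% (76.2% to 93.2%) and 29%. No histone gene had a TSS in a region of decreased H3K4me1, which leaves an upper limit of 5.2%, and 203 other coding genes (0.91%) did. In pools of whole hearts, fewer cells with the mark and less of the mark per cell cannot be told apart.

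All 5 families had genes in the list. For H1, the TSSs of 5 of 6 genes lay in a region of decreased H3K4me2, the exception being *Hist1h1d*. For H3, 10 of 12 did, and both others, *Hist2h3c1* and *Hist2h3c2*, had no region at the TSS. For H2B the count was 15 of 19, for H4 10 of 13 and for H2A 13 of 20. The Wilson intervals of the 5 families, from 43.3% to 81.9% for H2A and from 55.2% to 95.3% for H3, overlapped widely. By set, the counts were 45 of 56 in *Hist1*, 6 of 10 in *Hist2*, 1 of 3 in *Hist3* and 1 of 1 for *Hist4h4*.

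**Figure D1:**
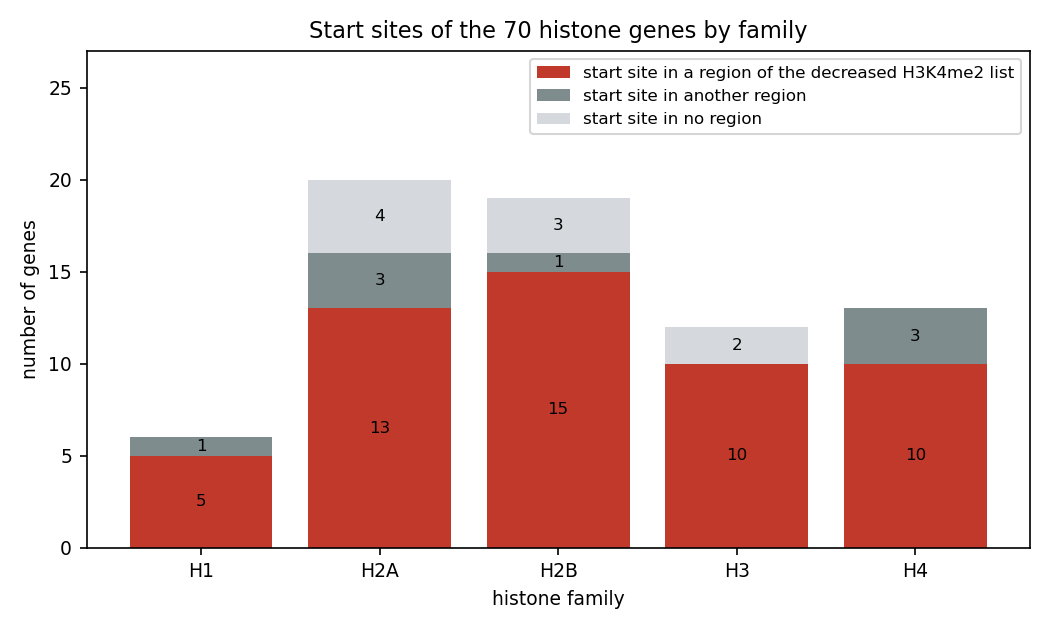
Number of histone genes (y axis) by family (x axis), divided by whether the annotated TSS lay in a region of the decreased H3K4me2 list (red), in another region of the merged list (dark grey) or in no region (light grey). The red part is the largest in every family, from 5 of 6 H1 genes to 13 of 20 H2A genes.

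Neighbouring genes shared regions, so the 61 genes corresponded to only 26 distinct histone promoter regions, each of which was counted once. Of these 26, 19 were in the list of decreased H3K4me2 (73.1%, 53.9% to 86.3%). The comparison was made with the 17726 regions that held the TSS of another protein-coding gene, of which 3984 (22.5%) were in that list. None of the 26 was in the list of decreased H3K4me1, with an upper limit of 12.9%, whereas 209 of the 17726 (1.18%) were. At the rate of coding promoters of like width, 0.465 of 26 regions would be in that list, so a count of 0 does not separate histone promoters from others.

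Histone promoter regions were broad. Their median width was 6000 bp (quartiles 4005 and 9430 bp, range 160 to 16920 bp), against 3220 bp (1900 and 5180 bp) for other coding promoter regions. At least 4000 bp was reached by 19 of 26 (73.1%) and by 38.0% of coding promoter regions. The body of most of these genes is shorter than 1 kb, so a region of this size usually covered the whole gene and the space around it. The exceptions at this width were *Hist1h1d*, *Hist1h2ac*, *Hist1h2bc*, *Hist1h2be* and *Hist2h2bb*, with 32.9% to 85.9% of the body in regions. In all, the 26 regions covered 181280 bp, of which 160880 bp (88.7%) belonged to regions with decreased H3K4me2.

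**Figure D2:**
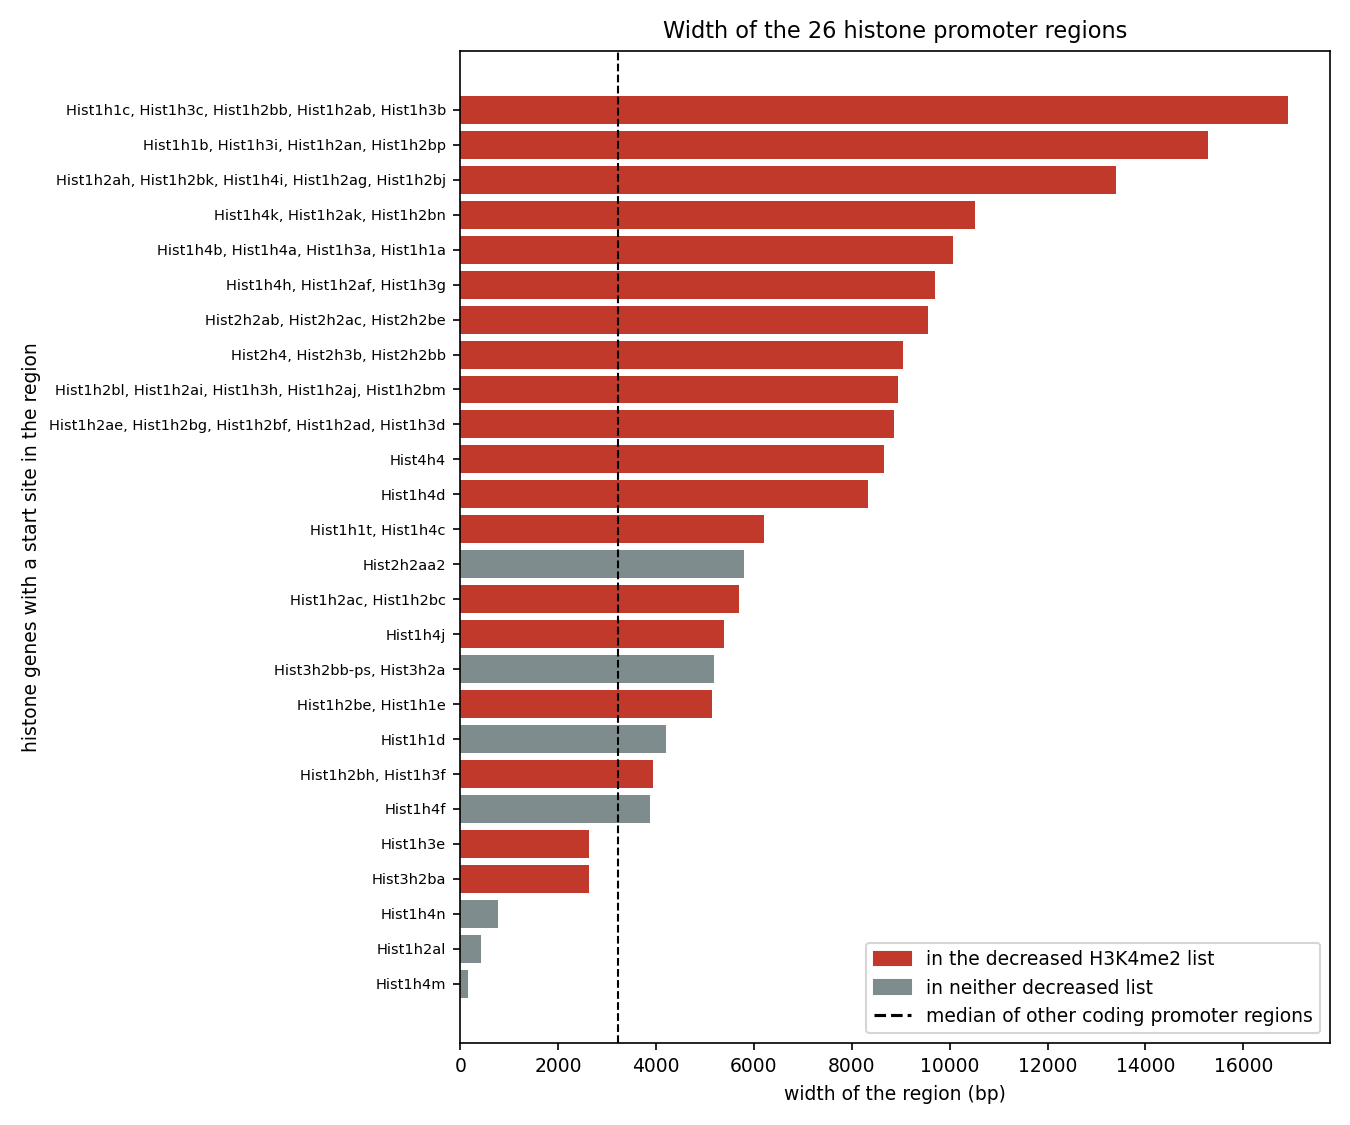
Width in bp (x axis) of each of the 26 histone promoter regions, named by the genes whose TSSs it holds (y axis). Red bars are regions in the decreased H3K4me2 list, grey bars are in neither decreased list, and the dashed line is the median of other coding promoter regions (3220 bp). All 12 regions of at least 8000 bp are red, and the 3 narrowest bars are grey.

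Wide regions were called more often genome-wide, so the calls were compared within classes of width. Among coding promoter regions the share in the list of decreased H3K4me2 rose from 0.273% under 500 bp to 50.5% at 16000 bp or more. Weighting these shares by the widths of the histone regions gave 29.7%, or 7.73 of 26 regions, against the 19 observed. From 8000 to under 16000 bp, all 11 histone regions were in the list (interval 74.1% to 100%), compared with 553 of 1513 coding regions (36.5%). From 4000 to under 8000 bp the counts were 4 of 7 histone regions (57.1%, 25% to 84.2%) and 32.1% of coding regions, and from 2000 to under 4000 bp they were 3 of 4 and 23.4%. The interval from 4000 bp included the coding share, and that from 2000 bp (30.1% to 95.4%) rested on 4 regions. Of 3 histone regions narrower than 1000 bp, 0 were in the list, where the coding shares were 0.273% and 1.45% in the classes split at 500 bp.

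**Figure D3:**
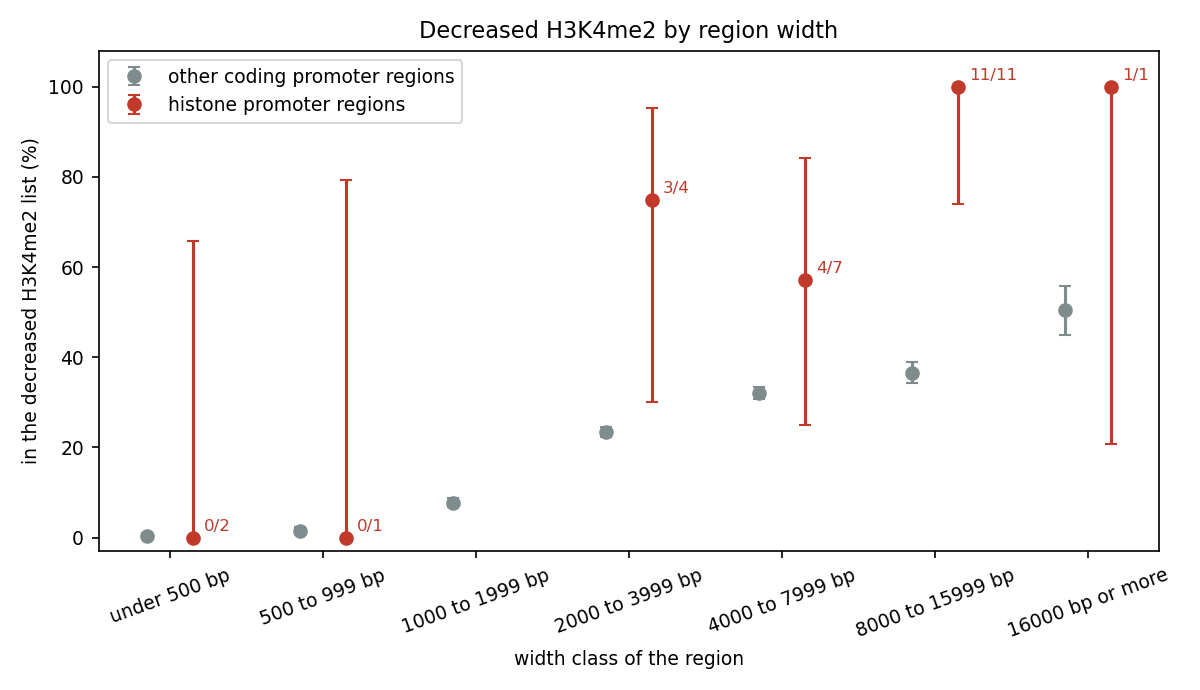
Percentage of regions in the decreased H3K4me2 list (y axis) by width class (x axis), for histone promoter regions (red, with counts) and other coding promoter regions (grey). Points are shares and bars are 95% Wilson intervals. From 2000 bp upwards every red point lies above its grey point, and from 8000 to under 16000 bp the red point is at 11 of 11 against 36.5%.

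Several genes per region also went with a higher share among coding promoters. Of the 26 histone regions, 15 (57.7%) held the TSSs of 2 or more histone genes, and up to 5, whereas 9.51% of coding promoter regions held the TSSs of 2 or more genes. Those coding regions were in the list of decreased H3K4me2 in 36.4% of cases (613 of 1686, median width 4880 bp), rising to 42.5% (37 of 87, 9160 bp) with 3 or more genes. Coding regions with a divergent pair of TSSs were in it in 37.9% (414 of 1093) and those of single-exon genes in 21.2% (118 of 557). Among wide regions of at least 8000 bp that held 2 or more coding genes, the share was 47.1% (153 of 325, 41.7% to 52.5%), and all 12 histone regions of that width were in the list (75.8% to 100%). Of the histone regions, 14 of 15 with TSSs of several histone genes were in the list, and 5 of 11 with the TSS of 1 histone gene. Among the latter, the listed regions of *Hist1h4d* and *Hist4h4* also held the TSS of another coding gene. This split was not matched for width, and the narrow regions of 160, 420 and 760 bp each held 1 histone gene. Each of these comparisons is a description, since the lists allow no test over samples.

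The broadest region, chr13:23829526-23846445, spanned 16920 bp and was wider than 98.4% of coding promoter regions. It held the TSSs of the linker histone gene *Hist1h1c* and of *Hist1h3c*, *Hist1h2bb*, *Hist1h2ab* and *Hist1h3b*, and was in the list of decreased H3K4me2. A short gap separated it from a further listed region of 10060 bp with *Hist1h4b*, *Hist1h4a*, *Hist1h3a* and *Hist1h1a*. Together these regions brought 9 genes of all 5 families into adjacent stretches with a call of lower H3K4me2. Another listed region, of 8860 bp, chr13:23660746-23669605, held the head-to-head pairs *Hist1h2ae* and *Hist1h2bg*, and *Hist1h2bf* and *Hist1h2ad*, with *Hist1h3d*. Next to it lay the 8340-bp region of *Hist1h4d*, which also held the TSS of *Gm17658*. At the end of this stretch, *Hist1h4h*, *Hist1h2af* and *Hist1h3g* shared a listed region of 9700 bp.

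In the other large group of *Hist1* genes, the widest region was chr13:21868826-21884105, of 15280 bp, with *Hist1h1b*, *Hist1h3i*, *Hist1h2an* and *Hist1h2bp*. Listed regions of 13400 bp (*Hist1h2ah*, *Hist1h2bk*, *Hist1h4i*, *Hist1h2ag* and *Hist1h2bj*), 10520 bp (*Hist1h4k*, *Hist1h2ak* and *Hist1h2bn*), 8940 bp (*Hist1h2bl*, *Hist1h2ai*, *Hist1h3h*, *Hist1h2aj* and *Hist1h2bm*) and 5380 bp (*Hist1h4j*) completed the set of listed regions that held a histone TSS there. The narrowest region with a histone TSS in this group was the 160-bp region at *Hist1h4m*, which was in neither list.

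The smaller listed regions of *Hist1* held 1 or 2 genes each. *Hist1h1t*, a linker histone of the testis, shared 6200 bp with *Hist1h4c*. *Hist1h2ac* and *Hist1h2bc* shared 5700 bp, *Hist1h2bh* and *Hist1h3f* 3940 bp, and *Hist1h3e* had 2620 bp of its own. A listed region of 5140 bp held the TSS of *Hist1h1e* and the annotated TSS of *Hist1h2be*. The annotated body of *Hist1h2be* spans 37383 bp, and its coding sequence lies at the far end, inside the region of *Hist1h4d*, which was also listed. That long body is why 11 regions were assigned to *Hist1h2be*, the most of any member, against a median of 2.

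Outside *Hist1*, the 9560-bp region of *Hist2h2ab*, *Hist2h2ac* and *Hist2h2be* and the 9040-bp region of *Hist2h4*, *Hist2h3b* and *Hist2h2bb* were in the list of decreased H3K4me2. *Hist3h2ba* lay in a listed region of 2620 bp. The lone *Hist4h4* lay in a listed region of 8660 bp, chr6:136751386-136760045, which it shared with *H2afj*, a histone variant gene that is not of the clustered kind, so the call belongs to both genes.

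**Figure D4:**
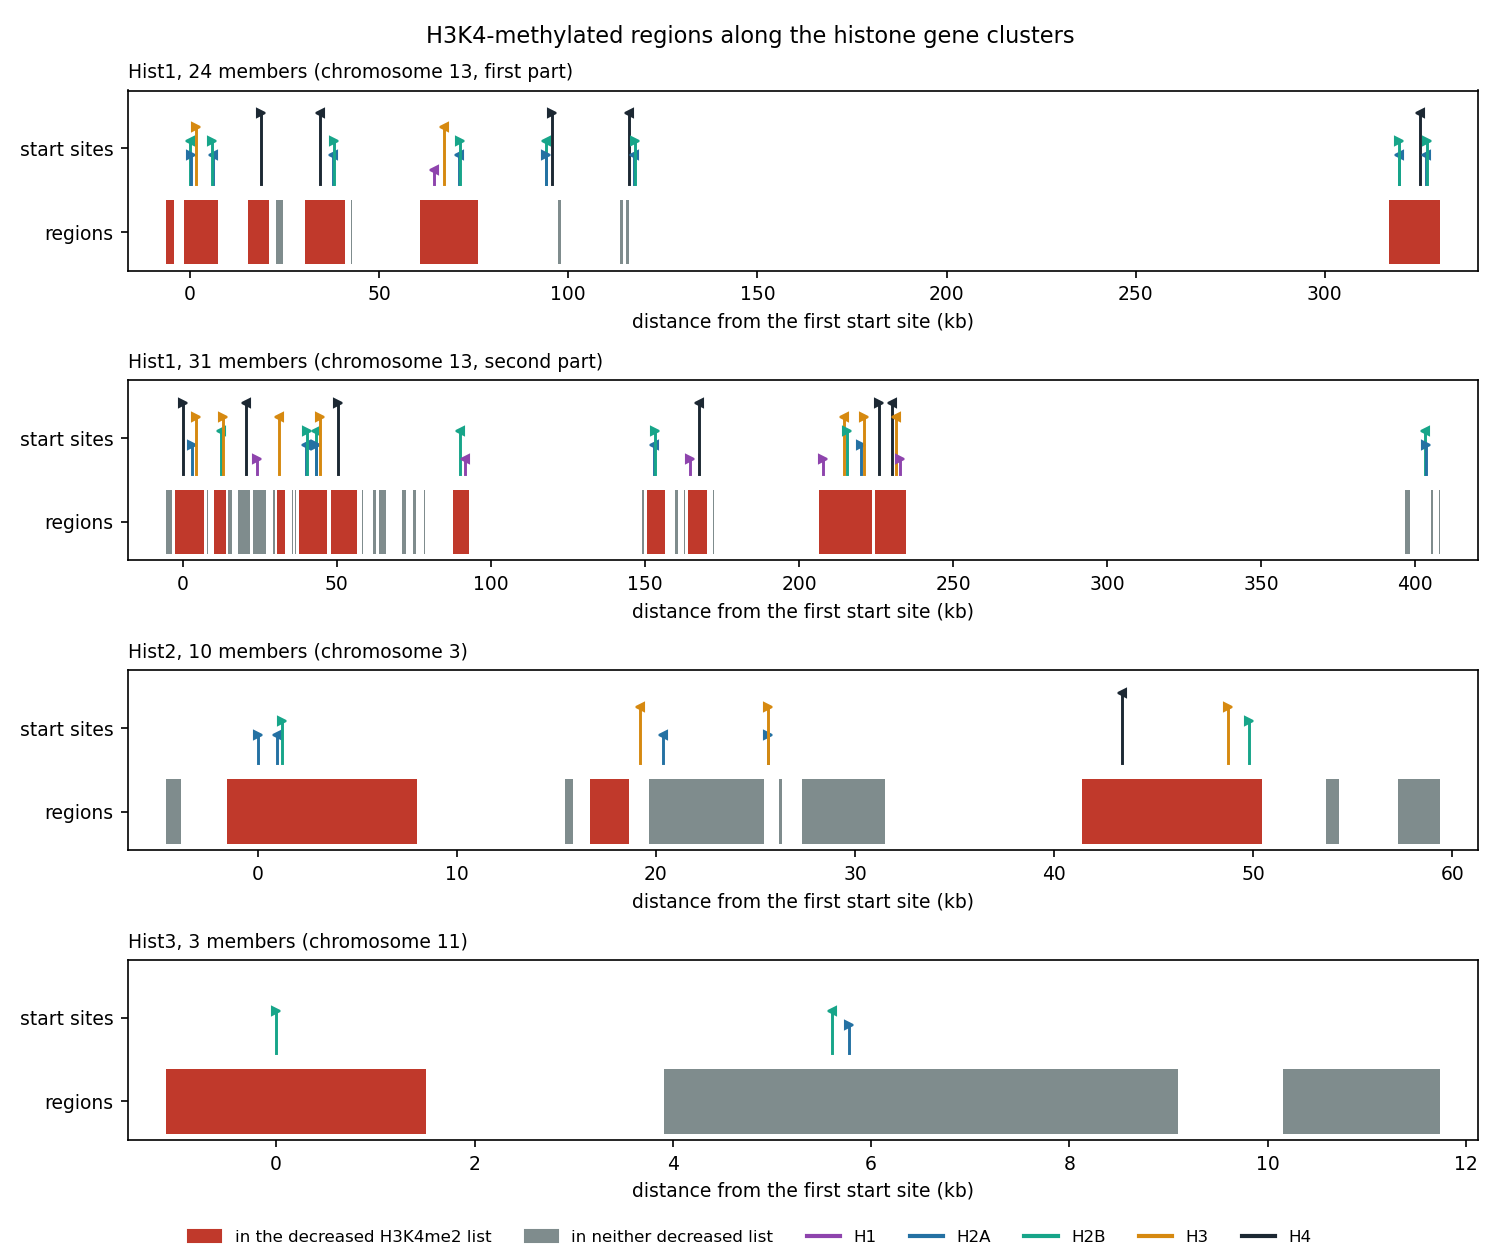
Regions assigned to the histone genes (boxes) and their TSSs (ticks coloured by family, with an arrowhead in the direction of transcription) along 4 clusters, with distance from the first TSS in kb on the x axis. Red boxes are in the decreased H3K4me2 list and grey boxes in neither list. Wide red boxes sit under groups of TSSs, while the 6 genes of the inverted repeat in the upper panel, *Hist1h2bq* to *Hist1h2br*, have narrow grey boxes or none. The single genes *Hist1h2al* and *Hist4h4* are not drawn.

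In neither decreased list were the 7 promoter regions of *Hist2h2aa2* (5800 bp), *Hist3h2bb-ps* with *Hist3h2a* (5180 bp), the linker histone gene *Hist1h1d* (4200 bp), *Hist1h4f* (3880 bp), *Hist1h4n* (760 bp), *Hist1h2al* (420 bp) and *Hist1h4m* (160 bp). The median width of these was 3880 bp, compared with 8860 bp for the 19 listed regions. *Hist1h1d* and *Hist1h4f* were adjacent to each other, and listed regions lay on either side of them. A region outside the list may still have changed, because the lists do not give the change or the reads behind it.

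For 9 genes no region was present at the TSS. In the case of 4 of them, *Hist1h2bq*, *Hist1h2ao*, *Hist1h2ap* and *Hist1h2br*, the nearest region lay 1339 to 1518 bp away. *Hist2h3c2*, *Hist2h2aa1* and *Hist2h3c1* lay 436, 176 and 192 bp from a region. The first annotated TSSs of *Hist2h2aa1* (chr3:96049461) and *Hist2h3c1* (chr3:96049477) nearly coincide, so these genes are not separate cases. The stem-loop of *Hist2h3c1* lay further along, inside a region of 4140 bp that was in neither list. The pair *Hist1h2ba* and *Hist1h2aa*, which encode histones made chiefly in the testis, lay 341 and 35 bp from the nearest region. With the window of 5 kb, every one of the 70 genes had at least 1 region, and 57 (81.4%, 70.8% to 88.8%) had a region of decreased H3K4me2. The shares of other coding genes under this window were not computed, so these 2 counts have no background here.

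Several of the genes without a region lie in duplicated sequence, where short words of DNA occur in more than 1 place. Around each TSS, the share of 32-base words within 500 bases that occur more than once in the genome was counted. This share was 100% for the 4 genes *Hist1h2bq*, *Hist1h2ao*, *Hist1h2ap* and *Hist1h2br*, 96.2% for *Hist1h4m* and 97.1% for *Hist1h4n*, all of which belong to an inverted repeat within the cluster. The 167-base inter-TSS sequence of *Hist1h2bq* and *Hist1h2ao* printed above had 0 mismatches to that of *Hist1h2ap* and *Hist1h2br* on the other strand. In *Hist2*, the shares were 96.7% for *Hist2h3c2*, 72.6% for *Hist2h3c1* and 70.9% for both *Hist2h2aa1* and *Hist2h2aa2*. The 9 genes without a region had a median of 96.7% (4.95% to 100%), the 8 in a region of neither list 38.95% (18.8% to 97.1%), and the 53 in a region of decreased H3K4me2 34.9% (0% to 62.1%). By contrast, *Hist1h2ba* (17.6%) and *Hist1h2aa* (4.95%) had little repeated sequence and no region at the TSS. How reads with several matches were treated is not given in the sources used here, and the part of repeated sequence in the missing regions was not tested.

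**Figure D5:**
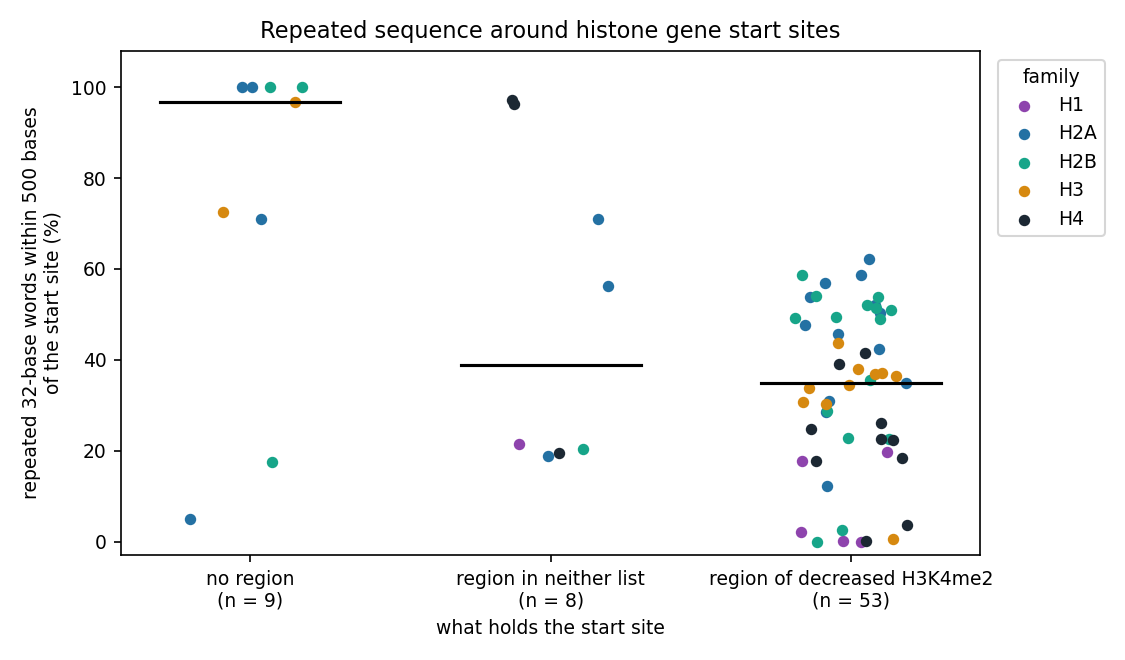
Percentage of 32-base words within 500 bases of each TSS that occur more than once in the genome (y axis), for genes with no region at the TSS, a region in neither list, or a region of decreased H3K4me2 (x axis). Each point is 1 gene coloured by family, spread sideways for visibility, and lines are medians (96.7%, 38.95% and 34.9%). No gene above 62.1% has a region of decreased H3K4me2 at its TSS, and 2 genes with no region have values under 20%.

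Most head-to-head pairs lay in a listed region. Of 39 H2A and H2B genes, 26 formed 13 such pairs, with start sites 168 to 306 bp apart (median 216 bp). In 10 pairs both TSSs lay in 1 region, and in 9 of these the region was in the list of decreased H3K4me2, the exception being *Hist3h2bb-ps* with *Hist3h2a*. The 9 pairs are not separate cases. The *Hist1h2ag* and *Hist1h2ah* pairs shared the region of 13400 bp, and the *Hist1h2ae* and *Hist1h2bf* pairs that of 8860 bp. Among coding promoter regions with a divergent pair, counted by region, 37.9% (414 of 1093) were listed. The 3 pairs without a region were both copies of the duplicated pair and *Hist1h2ba* with *Hist1h2aa*. *Hist1h2bh* and *Hist1h3f*, which face each other 693 bp apart, also shared a listed region.

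Promoter sequences were searched from 250 bases before to 50 bases after the TSS, on both strands; windows of paired genes overlap. TATAAA, the core of the TATA box, was present in 38 of 70 histone promoters (54.3%) and 13.3% of 22308 other coding promoters. A match counted at any position in the window, so it need not be the TATA box of that gene. In *Hist1h2ak*, *Hist1h2ah*, *Hist1h2ad* and *Hist1h4a* it lay after the TSS. It was found only on the other strand in *Hist1h2bn*, *Hist1h2bk*, *Hist1h2bp*, *Hist1h2bf*, *Hist1h2bc*, *Hist1h2ae* and *Hist2h2be*. CCAAT was present in 84.3% and 37.8%, and by family in all 6 H1 and all 19 H2B genes but in 4 of 13 H4 genes. The octamer ATTTGCAT, which is bound by the POU factor OCT1 and is known from H2B promoters, was present in 9 of 19 H2B and 7 of 20 H2A genes, in none of H1, H3 or H4, and in 1.66% of other coding promoters. AAACACA, known as the H1 box, was present in 5 of 6 H1 genes and 6.4% of other coding promoters. Histone promoters had a median GC content of 46.0%, against 55.3%, and a median of 11.5 CpG dinucleotides, against 11.

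The motifs were then compared between genes with and without the methylation call. TATAAA was present in 56.6% of the 53 genes in a region of decreased H3K4me2 and in 50% of the 8 in another region. The octamer was present in 22.6% and 25%, and CCAAT in 84.9% and 62.5%. The intervals overlapped for each, and only 8 genes were in the smaller group. Among the printed sequences, the *Hist3* pair, in neither list, has an octamer and CCAAT boxes, as do the listed *Hist1h2ae* and *Hist2h2ac* pairs. The *Hist1h2ba* and *Hist1h2aa* sequence holds all 4 motifs yet had no region at either TSS.

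Regions between the promoters were mostly unlisted. The 68 distinct regions assigned to the genes comprised the 26 promoter regions and 42 flanking ones, which were narrow (median 460 bp, at most 4140 bp). Of the 68, 21 (30.9%, 21.2% to 42.6%) were in the list of decreased H3K4me2, of which 19 were promoter regions, compared with 1.87% of all merged regions. Of the 42 flanking regions, 2 were listed (4.76%, 1.32% to 15.8%), an interval that included the share of all merged regions. They were chr13:21801766-21803785, of 2020 bp, near *Hist1h2bl* and *Hist1h2ai*, and chr3:96040526-96042485, of 1960 bp, which overlapped the 3′ part of *Hist2h3c2*. None of the 68 was in the list of decreased H3K4me1, with an upper limit of 5.35%. That limit lay above the share of all merged regions, 0.761%, so this count does not separate them from other regions.

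Other regions in and around the clusters were listed less often than histone promoters, as a description without a test and without matching for width. Within the cluster spans, 137 regions held no histone TSS, counting the flanking regions that lie there. Of these 137, 11 (8.03%) were in the list of decreased H3K4me2, compared with 1.87% of all merged regions. Of the 45 with at least 1000 bp, 10 were listed (22.2%, 12.5% to 36.3%). The share of all merged regions of that width was not computed, so the 22.2% has no like background here. All but 1 of the 10 lay in the gap of the first *Hist1* group between *Hist1h2br* and *Hist1h2ah*. They were 8507 to 97487 bp from the nearest histone TSS, and 1 held the TSS of the zinc finger gene *Zfp184*. Of 11 other coding genes in the spans, 7 had a TSS in a region and 2 in a listed one, *Zfp184* and *Gm17658*, the latter inside the region of *Hist1h4d*. The iron-regulating gene *Hfe* and the transporter gene *Slc17a4* had a TSS in a region, but not in a listed one. The transporter genes *Slc17a1*, *Slc17a2* and *Slc17a3* had no region at the TSS. In the 1 Mb on either side of the clusters, 41 of 141 coding promoter regions (29.1%, 22.2% to 37.0%) were in the list. The share over all other coding promoter regions, 22.5%, lay inside this interval. Near the first *Hist1* group the count was 4 of 8, and near the second it was 5 of 18.

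Genes that act on histone transcription or histone mRNA were examined as a list. All 16 had a TSS in a region, with a median width of the widest region of 5190 bp, and 8 of 16 (50%, 28.0% to 72.0%) were in a region of decreased H3K4me2. The share among other coding genes with a TSS in a region, 29%, lay inside this interval, so the list did not stand apart from them. The 8 were *Casp8ap2* (FLASH, a processing factor, 3080 bp), *Slbp* (stem-loop binding protein, 7080 bp), *Lsm11* (a U7 snRNP subunit, 3020 bp), *Hinfp* (an activator of H4 genes, 2820 bp), *Pou2f1* (OCT1, 8560 bp), the 3′ end processing genes *Cpsf2* (7540 bp) and *Cstf2* (2380 bp), and cyclin E1 (*Ccne1*, 5940 bp). *Npat* (5400 bp), *Lsm10*, *Zfp473*, *Coil*, *Cpsf3*, *Sympk*, *Cdk2* and *Ccne2* were in neither list at the TSS. None of the 16 had a TSS in a region of decreased H3K4me1 (upper limit 19.4%), compared with 0.91% of other coding genes.

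Histone genes outside the clusters, most of which are polyadenylated and made throughout the cell cycle, were examined beside them. All 12 had a TSS in a region, with a median width of 5580 bp, and 5 of 12 (41.7%, 19.3% to 68.0%) were in a region of decreased H3K4me2. This interval also included the 29% of other coding genes with a TSS in a region. The 5 were *H2afv* (5320 bp), *H2afj* (8660 bp, shared with *Hist4h4*), *H3f3a* (5840 bp), *H3f3b* (4220 bp) and *H1f0* (6960 bp). *H2afz* (7300 bp) and *H2afx* (13040 bp) had wide regions in neither list. With 12 genes, the upper bound of 68.0% overlapped the interval of all 70 clustered genes (64.5% to 84.2%), 9 of which had no region at the TSS. It lay below that of the 61 clustered genes with a TSS in a region (76.2% to 93.2%). Counted by the 26 distinct regions, the clustered interval was 53.9% to 86.3% and overlapped. Clustered genes share regions, so the intervals by gene treat shared calls as separate. *H2afy* had no listed region at the TSS, but 2 of the 15 regions within its body or window were in the list of decreased H3K4me1. The clustered genes had a median of 2 regions each, and none of their 68 was in that list (upper limit 5.35%). The share of all merged regions, 0.761%, lay below that limit, so their lack of such regions does not set the clustered genes apart.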

How the data were processed

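H3K4me1, H3K4me2 and H3K4me3 ChIP-Seq libraries and inputs were prepared from 3 pools of 30 E11.5 hearts per genotype, and groups were taken from the sample titles. The authors called peaks, merged them over marks and replicates into 1 deposited list, and deposited lists of the regions with lower H3K4me1 or H3K4me2 in mutants below a false discovery rate of their choice. The submitters' processing notes name CASAVA 1.8.2, FastQC, Bowtie2, Bowtie, SAMtools and build mm9. Which peak caller, read filtering and statistical test were used is not given in the sources used here. The deposited values are starts and ends of regions, with no counts or scores. The depth behind a region is therefore unknown.

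Here, all regions were read as 1-based intervals and matched to GENCODE vM1 genes on NCBIM37. The last region of every chromosome ended within its NCBIM37 length. A decreased region was matched to the merged list by identical coordinates. Members were all genes with symbols beginning *Hist1h*, *Hist2h*, *Hist3h* or *Hist4h*, and a region was assigned to a gene when it overlapped the body or lay within 5 kb of an annotated TSS. Histone promoter regions held a member TSS, and other coding promoter regions held the TSS of a protein-coding gene and none of a member. Coding shares were weighted over 7 width classes, with edges at 500, 1000, 2000, 4000, 8000 and 16000 bp, by the widths of the histone regions. Several annotated TSSs coincide with the coding start. Named genes were the members in or out of the decreased list, those under the widest and narrowest regions of each cluster, those without a region, and the lists given in the text. The members and lists were chosen with earlier results of these data known. Motifs, stem-loops and repeated 32-base words were counted in the NCBIM37 sequence. The width weighting was run on simulated lists, and region searching was checked against a direct search at random positions. The simulated calls were drawn independently at the rates of the same width classes. They therefore checked the calculation only, not the effect of width within a class or of neighbouring regions. Python 3.11.15, pandas 2.3.3, numpy 2.4.6, statsmodels 0.14.6 and matplotlib 3.10.9 were used. No test over samples was run. Of the markers not expected in heart, 1 is not reported here. Alternatives were other windows, region widths, overlaps, members and comparison regions.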

Additional observations from a re-analysis of the deposited data

How the results depend on the processing

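No paired analysis was possible because the deposited lists carry no values per replicate, and for the same reason no replicate could be left out. The number of regions assigned to histone genes depended on the definition: 68 became 42 with a window of 1 kb, 99 with 10 kb, 26 when a TSS had to lie inside, 44 for regions of at least 500 bp and 14 without *Hist1*. The 21 regions of decreased H3K4me2 ranged from 19 to 24 under these choices, and fell to 5 without *Hist1*, which holds most members. No choice of window, width or overlap gave a region of decreased H3K4me1. The share of genes with a region at the TSS was 94.3% when the region could lie within 1 kb. Counting each gene in place of each region raised the share of decreased H3K4me2 from 73.1% to 86.9%. The other planned choices gave 66.7% (without *Hist1*) and 73.1%. The weighted coding share of 29.7% stayed between 29.3% and 29.8% for 20 width classes, single-exon genes or regions outside the clusters. Further alternatives were chosen after seeing the data. The weighted coding share was 36.4% over regions with several coding genes and 40.5% over those with a divergent pair, where width classes without such a region were left out. The histone share was 82.6% (19 of 23) without genes whose repeated words exceeded 70%, 73.1% without *Hist1h2be* and 72.0% without the region shared with *H2afj*. The cut at 70% could only raise the share, because no gene in a listed region had more than 62.1% repeated words. Depth is unknown, so a region outside a list may be unchanged or too thinly covered to call.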
